A study of Mus musculus with 19 samples.

Results

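The genes examined here are 10 genes of the disease-associated microglial state, *Cst7*, *Trem2*, *Tyrobp*, *Clec7a*, *Itgax*, *Lpl*, *Spp1*, *Gpnmb*, *Axl* and *Csf1*, found by symbol among the 60567 genes of the deposited table. Each of the 10 symbols stood on 1 entry. The list was chosen by values of the same data, in which *Cst7* was the gene that separated astrocytes of APP-GFP and WT-GFP mice most clearly, so the values of that comparison are given here as a description, without *p*-values, and nothing is read from counts in it. The other comparisons of astrocytes share the WT-GFP or the APP-GFP samples with it, so their *p*-values for these genes are not independent of the choice.

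RNA was sequenced from cells sorted by FACS from the hippocampus of male C57bl6 mice at 9 months. WT-GFP astrocytes (7 samples) came from WT mice given an adeno-associated vector (AAV) for GFP, and APP-GFP astrocytes (4 samples) from APP/PS1dE9 mice, which carry a mutant amyloid precursor protein and a mutant presenilin, given the same vector. APP-SOCS3 astrocytes (5 samples) came from APP/PS1dE9 mice given vectors for SOCS3, an inhibitor of the JAK2-STAT3 pathway, and for GFP at the same total viral load. The fourth group holds the GFP− cells of WT-GFP mice (3 samples, called GFP− WT below), a mixture of microglia, neurons, other glia and uninfected astrocytes, and no GFP− cells of APP mice were analysed here. All 4 groups had thus received an AAV that targets astrocytes, and GFP fluorescence alone defined the astrocyte fraction. Since both hippocampi of a mouse were sorted separately and the labels do not name the animals, some samples may share a mouse, and *p*-values would then be too small.

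Disease-associated microglia are the microglia that gather at amyloid plaques. In the usual account of this state, cells lower homeostatic genes such as *P2ry12* and *Tmem119* and raise phagocytic, lysosomal and lipid genes, and the later steps need the receptor TREM2 and its signalling adaptor TYROBP. *Axl* and *Csf1* are on lists of this state but are also known to be transcribed by astrocytes.

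Between 19331876 and 32621917 reads were counted on genes per sample. The level used here is the read count divided by the size factor of the sample, so that 1 read was worth 0.756 to 1.18 units. Genes with a read numbered 15575, 18107 and 19198 in WT-GFP replicates 3, 2 and 1, and 16471 in APP-GFP replicate 2. The other astrocyte samples had 21602 to 26757. *Lpl* was at 0 in WT-GFP replicates 1, 2 and 3, and *Gpnmb* at 1 read in replicate 3. Whether such low values follow from fewer genes captured was not tested. The summed level of 15 astrocyte markers in GFP+ samples was 1285 to 2189% of its mean in GFP− cells. The summed level of 17 homeostatic microglial genes, such as *C1qb*, *C1qa* and *Cx3cr1*, was 7.81 to 29.2% of that mean in WT-GFP astrocytes, 10.3 to 58.3% in APP-GFP astrocytes and 5.65 to 10.3% in APP-SOCS3 astrocytes. RNA of these microglial genes was therefore present in every astrocyte sample, and APP-GFP replicates 2 and 3 (47.9 and 58.3%) stood above all other astrocyte samples. The 10 endothelial genes were at 2.41 to 23.4%, 3.49 to 20.03% and 0.725 to 3.88% of their mean in GFP− cells, in the same order of groups. Markers of monocytes and neutrophils (0 to 7.67%) and of lymphocytes (0 to 6.17%) were low in all astrocyte samples. *Socs3* itself was at 13296 to 37750 in APP-SOCS3 astrocytes, against 438 to 1639 in APP-GFP and 458 to 1208 in WT-GFP astrocytes. In such bulk samples, fewer cells of a type and less RNA per cell cannot be told apart.

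*Cst7* encodes cystatin F, an inhibitor of lysosomal cysteine proteases of immune cells. It was at 0 in 6 of 7 WT-GFP samples and at 11.2 (13 reads) in WT-GFP replicate 5. In APP-GFP astrocytes, it was at 544, 2401, 4526 and 905 in replicates 1 to 4. In APP-SOCS3 astrocytes, it was at 238, 388, 694, 229 and 43.9 in replicates 1 to 5. GFP− cells of WT mice had 42.5, 119 and 104. Every APP sample of either vector was thus above every WT-GFP astrocyte sample.

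*Trem2* encodes a lipid-sensing receptor of microglia and *Tyrobp* (DAP12) the adaptor that carries its signal. In WT-GFP astrocytes, *Trem2* ranged from 118 to 761 with a median of 499. It was at 294, 2657, 3311 and 782 in APP-GFP astrocytes and at 263, 286, 296, 237 and 30.8 in APP-SOCS3 astrocytes. GFP− cells had the highest group mean, with 1324, 1900 and 2894. *Tyrobp* had the same layout, at 158 to 1176 (median 673) in WT-GFP astrocytes. It was at 670, 2423, 5202 and 1168 in APP-GFP astrocytes, 710, 654, 894, 237 and 122 in APP-SOCS3 astrocytes, and 2676, 3732 and 3491 in GFP− cells. For both genes, APP-GFP replicates 2 and 3 were the highest astrocyte samples and APP-SOCS3 replicate 5 the lowest.

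*Clec7a* encodes dectin-1, a pattern-recognition receptor that binds beta-glucans, and *Itgax* the integrin subunit CD11c. *Clec7a* was at 0 to 17.6 (median 1.18) in WT-GFP astrocytes, and at 21.7, 323, 126 and 19.2 in APP-GFP astrocytes. APP-SOCS3 astrocytes had 13.2, 25.1, 0, 8.82 and 0, and GFP− cells 144, 89.2 and 127. *Itgax* was at 0 in all 7 WT-GFP samples. It was at 1.81, 0, 228 and 0 in APP-GFP astrocytes, so that APP-GFP replicate 3 alone carried the group. APP-SOCS3 replicate 3 had 7.00 and the other 4 had 0, whereas GFP− cells had 27.2, 39.3 and 74.2.

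**Figure D1:**
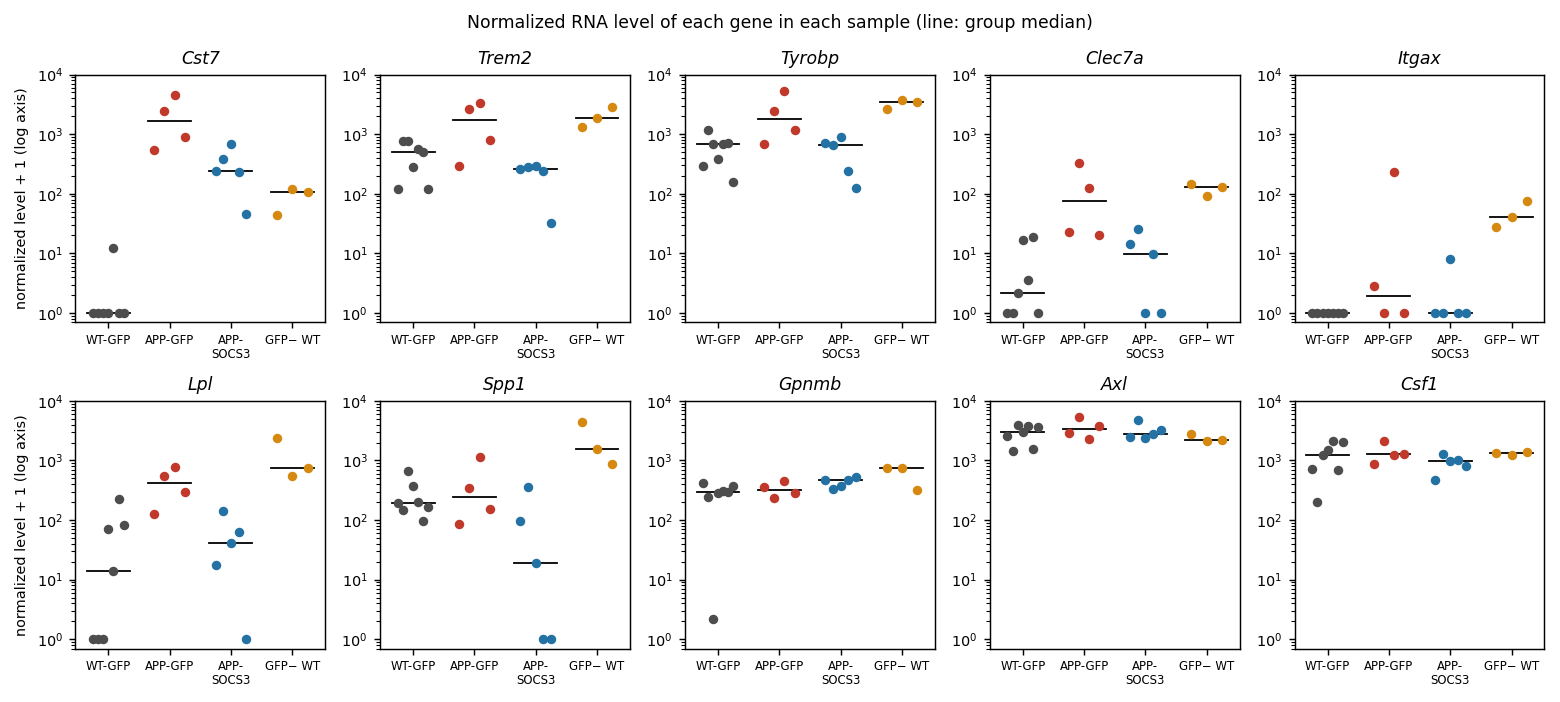
Normalized level plus 1 (log axis) of the 10 genes in each of the 19 samples, with a line at the median of each group. *Cst7* is at or near 0 in the 7 WT-GFP samples and between 43.9 and 4526 in the 9 APP samples, whereas *Axl* lies between 1448 and 5410 in all astrocyte samples.

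The 250 bases before the start site are shown for *Cst7*, *Trem2* and *Clec7a*, the intracellular inhibitor, the receptor and the lectin that were each higher in APP-GFP than in APP-SOCS3 samples. They are from RefSeq on GRCm38.p6 (mm10), 5′ to 3′ on the strand of the gene, at chr2:150570165-150570414 (+), chr17:48346151-48346400 (+) and chr6:129472780-129473029 (−, 1 of 2 starts). Capitals mark matches on either strand to GAGGAA, the core of PU.1 sites, to TGANTCA, an AP-1 site, or to GGAAGT, a core shared by ETS factors. The last of these was added after the *Cst7* window had been read.
Cst7: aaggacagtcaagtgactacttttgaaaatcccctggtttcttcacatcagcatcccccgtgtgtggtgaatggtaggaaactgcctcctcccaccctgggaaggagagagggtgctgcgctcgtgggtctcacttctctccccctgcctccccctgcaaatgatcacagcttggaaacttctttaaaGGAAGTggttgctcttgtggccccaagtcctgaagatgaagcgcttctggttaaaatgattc
Trem2: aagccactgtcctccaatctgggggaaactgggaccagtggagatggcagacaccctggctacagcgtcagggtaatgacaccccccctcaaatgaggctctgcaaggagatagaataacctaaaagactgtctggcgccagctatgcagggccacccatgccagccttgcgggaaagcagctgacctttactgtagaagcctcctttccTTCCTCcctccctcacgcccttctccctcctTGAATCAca
Clec7a: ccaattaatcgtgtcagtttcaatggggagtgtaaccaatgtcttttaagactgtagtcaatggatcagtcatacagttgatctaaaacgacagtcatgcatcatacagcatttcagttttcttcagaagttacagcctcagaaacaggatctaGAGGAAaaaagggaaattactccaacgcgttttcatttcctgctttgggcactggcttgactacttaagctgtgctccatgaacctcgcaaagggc

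Windows of 8 of the 10 genes were found, and *Tyrobp* and *Lpl* had no entry. GAGGAA was in the windows of *Trem2* (40 bases before the start), *Clec7a* (96), *Axl* (130) and 1 of 2 windows of *Spp1* (113), and in 23.3% of all 32851 windows of this length. GGAAGT was in those of *Cst7* (62 bases before the start), *Itgax* (121 and 41) and *Spp1* (111, overlapping the GAGGAA match), and in 19.7% of all windows. TGANTCA was in those of *Trem2* (9) and *Itgax* (56), and in 6.75% of all windows. The STAT motif TTCCNGGAA (0.913% of windows) and the E-box CACGTG (6.02%) were in none of the 8, and *Gpnmb* and *Csf1* held none of the 5 motifs. A match is a description of these letters and not of binding.

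*Lpl* encodes lipoprotein lipase, and *Spp1* encodes osteopontin, a secreted ligand of integrins and CD44. *Lpl* was at 0 to 221 (median 12.98) in WT-GFP astrocytes and at 126, 548, 762 and 296 in APP-GFP astrocytes. It was at 16.6, 140, 41.0, 61.8 and 0 in APP-SOCS3 astrocytes and at 2425, 557 and 743 in GFP− cells. *Spp1* was at 95.4 to 664 (median 194) in WT-GFP astrocytes, and at 86.0, 338, 1134 and 155 in APP-GFP astrocytes. APP-SOCS3 astrocytes had 93.8, 355, 18, 0 and 0, and GFP− cells 4361, 1571 and 855. The spread of *Spp1* within each group was thus wide, with 2 of 5 APP-SOCS3 samples without a read.

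*Gpnmb* encodes a lysosomal glycoprotein, *Axl* a receptor kinase that senses dying cells through GAS6, and *Csf1* a ligand of the CSF1 receptor of microglia. *Gpnmb* was at 1.18 to 413 (median 291) in WT-GFP astrocytes, where replicate 3 had 1 read, and at 358, 232, 456 and 279 in APP-GFP astrocytes. APP-SOCS3 astrocytes had 460, 335, 376, 471 and 519, and GFP− cells 759, 754 and 319. WT-GFP astrocytes had *Axl* levels of 1448 to 3882 (median 3041), APP-GFP astrocytes 2839, 5410, 2320 and 3773, and APP-SOCS3 astrocytes 2443, 4740, 2393, 2775 and 3256. In the GFP− fraction, *Axl* was at 2763, 2136 and 2165. WT-GFP astrocytes had *Csf1* levels of 199 to 2134 (median 1235), APP-GFP astrocytes 881, 2132, 1254 and 1296, and APP-SOCS3 astrocytes 467, 1293, 971, 1021 and 816. In the GFP− fraction, *Csf1* was at 1345, 1233 and 1373. For these 3 genes, the ranges of the 3 astrocyte groups overlapped.

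The comparison of GFP+ astrocytes with GFP− cells, both of WT mice, asks which sorted fraction carried each gene. With limma on log2(level + 1), *Trem2*, *Tyrobp*, *Lpl* and *Spp1* were lower in GFP+ astrocytes (unadjusted *p* of at most 0.05 and at least 1.5-fold). Of all 26709 genes tested, 33.5% were called lower. *Cst7*, *Clec7a* and *Itgax* also passed these thresholds, but they reached the minimum level of 10 only through GFP− cells, where they are high, so their calls say nothing and their levels are a description. Mean levels in GFP− cells were 4.59 times those in GFP+ astrocytes for *Trem2*, 5.66 times for *Tyrobp*, 8.61 times for *Spp1*, 22.5 times for *Lpl* and 22.6 times for *Clec7a*. *Cst7* was at 0 in 6 of the 7 GFP+ samples, and no ratio is given for it. *Itgax* was at 0 in GFP+ astrocytes and at least 15.5-fold lower than in GFP− cells, against a floor of 3 reads per sample. For *Itgax* and the other 6 genes named here, the 7 GFP+ samples did not overlap the 3 GFP− samples, as was so, in this direction, for 27.2% of genes tested. For the 4 genes that were above the minimum in both fractions, the exact permutation *p* was 0.0167, the smallest that 7 against 3 samples can give, and the adjusted *p* of limma ranged from 0.00279 (*Tyrobp*) to 0.0223 (*Lpl*). The 7 GFP+ samples are the WT-GFP samples of the comparison that chose the genes.

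*Gpnmb*, *Axl* and *Csf1* were not called between these fractions. Their log2 fold changes were −1.88 ± 1.44 (SE), 0.18 ± 0.34 and −0.44 ± 0.64, with 95% intervals of −5.05 to 1.29, −0.57 to 0.94 and −1.84 to 0.96. The median log2 fold change was −1.31 over all genes tested and −2.89 over the 10 genes, and *Axl* was 1.499 above the median of all genes. The median of all genes was −0.46 after scaling to equal upper quartiles, where *Axl* was called higher in GFP+ astrocytes (log2 fold change 0.94), and the sign for *Csf1* turned (0.32).

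In APP-GFP relative to WT-GFP astrocytes, the comparison that chose the genes, mean log2 levels differed by 10.06 ± 1.05 (SE) for *Cst7*, 5.02 ± 1.63 for *Lpl*, 4.43 ± 1.27 for *Clec7a*, 1.85 ± 0.60 for *Tyrobp* and 1.76 ± 0.73 for *Trem2*. For *Cst7*, the value was 12.92 with a pseudocount of 0.1 and 7.11 with 10, and for *Clec7a* it was 6.01 and 2.53, so both sizes depend on the pseudocount. *Lpl* was at 0 in 3 of 7 WT-GFP samples. Its value ranged from 2.97 to 6.93 over the settings tried, and it did not pass the thresholds by edgeR. The groups did not overlap for *Cst7* and *Clec7a*, as was so in this direction for 0.231% of genes tested. *Itgax* was at least 18.9-fold higher in mean level through 1 sample. *Spp1*, *Gpnmb*, *Axl* and *Csf1* differed by 0.30 to 1.06, less than the spread between samples. Without APP-GFP replicates 2 and 3, the samples richest in homeostatic microglial RNA, the difference was 8.94 for *Cst7*, 2.81 for *Clec7a* and −0.90 for *Spp1*.

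In the APP-GFP samples, 6 other genes of 28 from a wider list of this microglial state passed the thresholds above for higher levels than in WT-GFP, beside 1.66% of 22969 genes tested. The list was written with earlier results of these data known, so this is again a description and nothing is read from the count. They were *Cd52* (log2 fold change 4.92), *Ccl6* (4.28), *Igf1* (4.12), *Ch25h* (3.67), *Lyz2* (3.64) and *Cd68* (1.90). *Igf1* and *Ch25h* passed the minimum level only through APP-GFP. The median of the 28 was 0.29, beside 0.09 for all genes. The 17 homeostatic genes had a median of 0.58, and none passed the thresholds, which is a description too.

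The comparison of APP-SOCS3 with APP-GFP astrocytes asks what changed with the SOCS3 vector in APP mice. With limma, 6 of the 10 genes were lower in APP-SOCS3 astrocytes, *Cst7*, *Trem2*, *Tyrobp*, *Clec7a*, *Lpl* and *Spp1*, and none was higher. Over all 22844 genes tested, 3.37% were called lower. Mean levels were 319 ± 243 (SD, n = 5) against 2094 ± 1810 (n = 4) for *Cst7*, 222 ± 110 against 1761 ± 1451 for *Trem2*, and 523 ± 329 against 2366 ± 2029 for *Tyrobp*. APP-GFP thus had 6.57 times the *Cst7*, 7.92 times the *Trem2* and 4.52 times the *Tyrobp* level of APP-SOCS3. The same ratio was 12.96 for *Clec7a*, 8.34 for *Lpl* and 4.58 for *Spp1*. *Clec7a* and *Itgax* passed the minimum level only through APP-GFP, so the call of *Clec7a* says nothing and its levels are a description.

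The log2 fold change was −2.71 ± 0.78 (SE) for *Cst7*, −2.76 ± 0.82 for *Trem2*, −2.10 ± 0.68 for *Tyrobp*, −3.67 ± 1.34 for *Clec7a*, −3.94 ± 1.25 for *Lpl* and −4.21 ± 1.71 for *Spp1*. The 2 groups overlapped for each of these genes. For *Cst7*, *Trem2*, *Tyrobp* and *Lpl*, this was through APP-GFP replicate 1 alone, for *Clec7a* through APP-GFP replicates 1 and 4 beside APP-SOCS3 replicate 2, and for *Spp1* through APP-SOCS3 replicates 1 and 2. Of the APP-SOCS3 samples, 4 of 5 were below all APP-GFP samples for *Cst7*, *Trem2*, *Clec7a* and *Lpl*. The 2-sided exact permutation *p* was 0.0317 for *Cst7*, *Trem2* and *Lpl*, 0.0476 for *Tyrobp*, and 0.111 for *Spp1*, where the smallest possible is 0.0159. After adjustment over all genes tested, none of the 6 passed (limma adjusted *p* 0.602 to 0.741). *Gpnmb* (0.41 ± 0.27), *Axl* (−0.17 ± 0.27), *Csf1* (−0.61 ± 0.32) and *Itgax* (−1.73 ± 1.64) were not called. This comparison shares the 4 APP-GFP samples with the one that chose the genes. A gene chosen for high values in these samples is favoured in advance to be lower in another group. The *p*-values above thus lean towards the reported direction and are a description.

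Homeostatic microglial genes moved with these genes: 16 of 17 were called lower in APP-SOCS3 than in APP-GFP astrocytes (median log2 fold change −1.90, against −2.41 for the 10 genes and 0.08 for all genes). Over all genes tested, 3.37% were called lower. All 10 endothelial genes were called lower too (median −2.69), as were 6 of 8 border macrophage genes (−3.03) and 5 of 8 mural genes (−2.57). The border macrophage genes summed to only 0 to 187 (median 69.0) in APP-SOCS3 samples. Of those called, 1 was at 0 in every APP-SOCS3 sample and passed the minimum level only through APP-GFP. Calls of such genes say nothing, so the border macrophage count is a description. Of the genes tested, 3 of 7 of oligodendrocyte precursors (−1.72) and 3 of 8 of neurons (−1.22) were called lower, while 1 of 15 astrocyte genes was (*Gfap*). With the homeostatic level as a covariate, 0 of the 10 genes were called by limma (0 at an adjusted *p* under 0.05). The log2 fold change was then −0.23 for *Cst7*, −0.05 for *Trem2* and 0.25 for *Tyrobp*. The covariate was the mean log2 level of the 17 genes, of which 16 were themselves called lower. Their summed level, a related measure, hardly overlapped between the groups (5.65 to 10.3% against 10.3 to 58.3% of its mean in GFP− cells). This fit therefore cannot separate group from homeostatic level, and nothing is concluded from the lost calls. Without APP-GFP replicates 2 and 3, which leaves 2 samples in that group, 0 of 9 genes tested were called by limma (0 at an adjusted *p* under 0.05), with the same signs. The log2 fold change was then −1.60 for *Cst7*, −1.45 for *Trem2*, −1.10 for *Tyrobp*, −2.05 for *Clec7a*, −3.07 for *Lpl* and −3.01 for *Spp1*. APP-GFP replicate 2 also stood apart in the summed level of oligodendrocyte genes (645% of the mean in GFP− cells, against 138 to 245% in the other astrocyte samples). The part of endothelial, macrophage, mural, neuronal and oligodendrocyte-lineage RNA in this result was not tested.

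**Figure D2:**
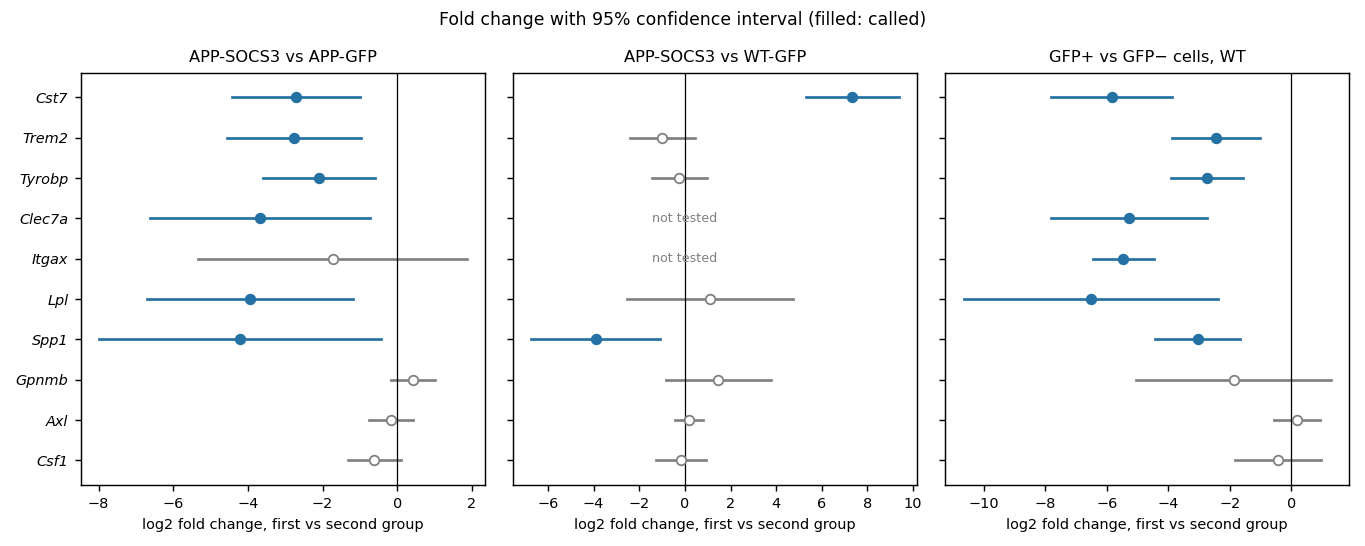
Log2 fold change of each gene (points) with its 95% confidence interval (lines) in 3 comparisons, filled where the gene passed the thresholds. *Cst7* lies below 0 in APP-SOCS3 against APP-GFP astrocytes (−2.71) and above 0 against WT-GFP astrocytes (7.34).

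The comparison of APP-SOCS3 with WT-GFP astrocytes asks what remained different from WT under the SOCS3 vector. *Cst7* was higher, with a mean level of 319 ± 243 (SD, n = 5) against 1.61 ± 4.25 (n = 7), and every APP-SOCS3 sample was above every WT-GFP sample. The log2 fold change was 7.34 ± 0.95 (SE), and it depends on the pseudocount, at 10.20 with 0.1 and 4.47 with 10. These 7 WT-GFP samples also served to choose *Cst7*, and it passed the minimum level only through APP-SOCS3, so its difference is a description and no *p* is given. It was the only gene of the 10 called higher, where 3.19% of 22958 genes tested were, and 0.287% of genes had all APP-SOCS3 above all WT-GFP samples. With the homeostatic level as a covariate, *Tyrobp* was called higher as well (log2 fold change 1.24, limma adjusted *p* 1) and *Spp1* was no longer called.

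*Spp1* was lower in APP-SOCS3 than in WT-GFP astrocytes (log2 fold change −3.91 ± 1.31, adjusted *p* of limma 0.649, exact permutation *p* 0.0354), where 2.02% of genes tested were called lower. It was not called by edgeR, which gave −1.45, or by DESeq2. *Trem2* (−0.9995 ± 0.66), *Tyrobp* (−0.25 ± 0.56), *Lpl* (1.08 ± 1.70), *Gpnmb* (1.47 ± 1.08), *Axl* (0.18 ± 0.29) and *Csf1* (−0.16 ± 0.51) were not called. *Clec7a* and *Itgax* were under the minimum level in both groups and were not tested. The median over the 8 genes tested was 0.01, beside 0.19 for all genes. In the same comparison, 13 of 17 homeostatic microglial genes were called lower (median −1.27), as were 8 of 10 endothelial genes, so *Cst7* was higher in samples with less homeostatic microglial RNA.

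Levels were next divided by the summed homeostatic level of the same sample, a scale added after the data had been seen. Per 1000 units of homeostatic level, *Cst7* was at 0 to 0.267 in WT-GFP astrocytes, 29.4 to 45.5 in APP-GFP astrocytes and 4.56 to 39.5 in APP-SOCS3 astrocytes. GFP− cells had 0.334 to 0.700. All 9 APP samples were thus above all WT samples of either sorted fraction. Between APP-SOCS3 and APP-GFP astrocytes the ranges overlapped, with means of 20.5 and 34.9 (2-sided exact permutation *p* = 0.0794). There were 30 such tests, 10 genes in 3 comparisons, and this *p* is not adjusted.

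On the same scale, *Trem2* was at 7.94 to 18.2 in WT-GFP astrocytes, 16.8 to 33.3 in APP-GFP astrocytes and 3.19 to 21.0 in APP-SOCS3 astrocytes, with 10.4 to 13.5 among GFP− cells. *Tyrobp* was at 10.6 to 23.7, 29.7 to 52.3, 12.7 to 50.9 and 16.2 to 22.0 in the same order of groups. For both genes, WT-GFP astrocytes and GFP− cells overlapped (exact permutation *p* = 0.767 and 0.483), unlike for *Axl*, at 29.1 to 246 against 10.1 to 21.8. The level of *Axl* itself overlapped between the fractions while the homeostatic sum was lower in every GFP+ sample. The ratio of *Axl* thus differs through its divisor, and no *p* is given. Likewise *Gpnmb*, not called by level, had mean ratios of 33.2 in APP-SOCS3 and 9.56 in APP-GFP astrocytes, where the homeostatic sum was mostly higher.

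**Figure D3:**
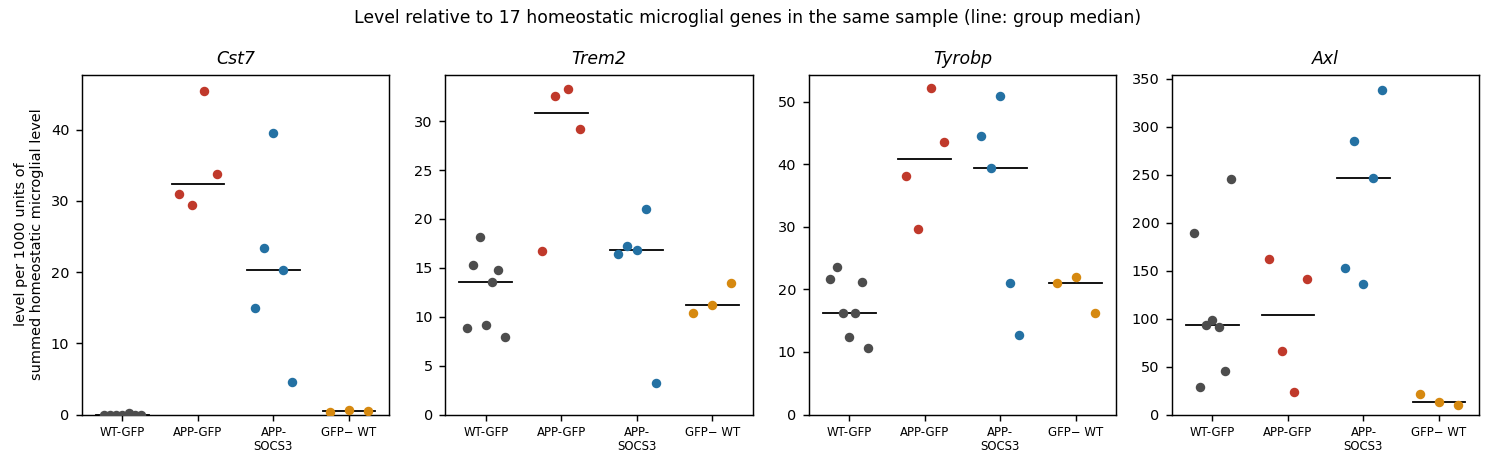
Level of 4 genes per 1000 units of the summed level of 17 homeostatic microglial genes in the same sample, by group, with a line at the median. *Cst7* is at 4.56 or more in the 9 APP samples and at 0.700 or less in the 10 WT samples.

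Over the 16 astrocyte samples, the homeostatic level was next taken as the mean log2 level of the 17 genes. With group means removed, the log2 level of *Trem2* followed it with a Pearson r of 0.888, and that of *Tyrobp* with 0.872. The value was 0.612 for *Cst7*, 0.521 for *Clec7a*, 0.504 for *Spp1*, 0.370 for *Itgax* and 0.202 for *Lpl*. It was −0.230 for *Gpnmb*, −0.058 for *Axl* and −0.014 for *Csf1*. Points that come from 1 library share its depth and sorting, and no test was made.

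**Figure D4:**
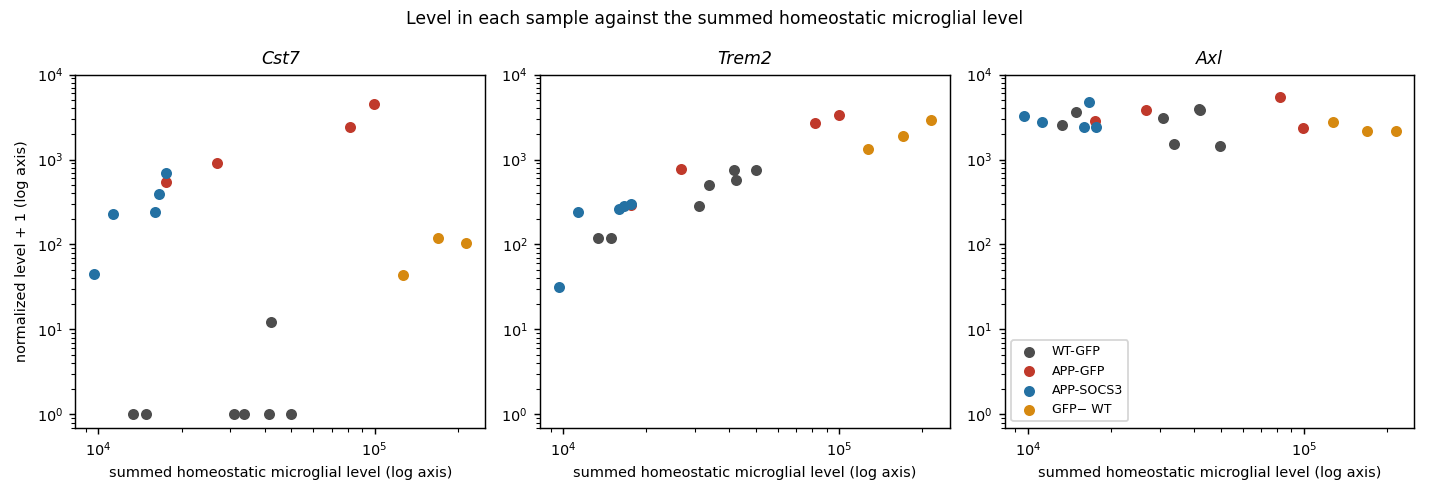
Normalized level plus 1 of *Cst7*, *Trem2* and *Axl* (log axis) against the summed homeostatic microglial level (log axis) in the 19 samples. The points of *Trem2* lie along a rising band, those of *Cst7* split by genotype among the astrocyte samples, and those of *Axl* stay between 1448 and 5410.

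The genes whose log2 level was most like that of *Cst7* over the 16 astrocyte samples, among 21543 genes, were 3 loci without a symbol (Pearson r 0.772 to 0.781), *Cd52* (0.769) and *Ccl6* (0.769). *Cd52* encodes a surface glycoprotein of leukocytes and *Ccl6* a chemokine. *Cd52* levels spanned 0 to 53.1 in the WT-GFP group, 29.0 to 517 in the APP-GFP group and 15.7 to 84.0 in the APP-SOCS3 group. The GFP− fraction of WT mice had *Cd52* at 408 to 490 and *Cst7* at 42.5 to 119. For *Axl*, the 5 genes were *Glrb* (0.942), *Sel1l* (0.935), *Nbr1* (0.933), B230398E01Rik (0.932) and *Tpp1* (0.926).

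Partners of these genes were taken from lists written for each. Of 13 genes of TREM2 signalling, 12 were tested between APP-SOCS3 and APP-GFP astrocytes and 3 were lower, *Inpp5d* (−2.83 ± 0.51 (SE), log2), a lipid phosphatase that restrains TREM2 signals, *Ptpn6* (−1.48 ± 0.54) and *Vav1* (−1.51 ± 0.58). None was higher, the median was −1.49, and 3.37% of all genes tested were called lower. *Syk*, the kinase recruited by TYROBP, differed by −1.12 ± 1.62 and was not called. None of the 11 genes tested was called between APP-SOCS3 and WT-GFP astrocytes by limma (0 at an unadjusted *p* under 0.05).

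Of 9 cathepsins and cystatins related to cystatin F, 3 were lower in APP-SOCS3 than in APP-GFP astrocytes, namely *Ctss* (−2.23 ± 0.56 (SE), log2), *Ctsh* (−1.86 ± 0.58) and *Ctsc* (−1.33 ± 0.41), the protease that cystatin F is known to inhibit. The same 3 were lower than in WT-GFP astrocytes, by −1.15 ± 0.36, −1.50 ± 0.42 and −0.96 ± 0.31. Homeostatic microglial genes were lower as well, with a median of −1.90 against APP-GFP and −1.27 against WT-GFP (13 of 17 called lower). Mean levels of *Ctss*, *Ctsh* and *Ctsc* were 15957, 6683 and 2528 in GFP− cells, against 3101, 1399 and 417 in WT-GFP astrocytes. The part of microglial RNA in these differences, and any link to *Cst7*, was not tested. Of all genes tested, 3.37% were called lower against APP-GFP and 2.02% against WT-GFP. *Ctsc* levels were 132 to 300 for APP-SOCS3, 255 to 1104 for APP-GFP and 225 to 540 for WT-GFP astrocytes, and 2337 to 2847 for GFP− cells. *Cst3*, which encodes cystatin C and is abundant in astrocytes, differed by −0.23 ± 0.21 between APP-SOCS3 and APP-GFP and by −0.11 ± 0.22 between APP-SOCS3 and WT-GFP astrocytes.

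For the integrin partners of *Itgax*, *Itgb2* (−4.004 ± 1.34 (SE), log2) and *Itgam* (−3.51 ± 1.26) were lower in APP-SOCS3 than in APP-GFP astrocytes, and *Itgal* was under the minimum level. *Csf1r*, the receptor of CSF1, was lower by −1.60 ± 0.35 than in APP-GFP and −1.18 ± 0.41 than in WT-GFP astrocytes, and *Il34*, its other ligand, was lower than in APP-GFP astrocytes (−2.48 ± 0.80). The ligand *Csf1* differed by −0.61 and −0.16 in the same comparisons and was not called in either. Among osteopontin receptors, *Itga9* was lower than in APP-GFP astrocytes (−3.09 ± 1.25) and *Cd44* higher than in WT-GFP astrocytes (3.07 ± 1.34), out of 6 genes tested each. Of all genes tested, 3.37% were called lower against APP-GFP, and 2.02% lower and 3.19% higher against WT-GFP. *Cd44* was at 0 in 5 of 7 WT-GFP samples, with a highest level of 73.8, so its fold change rests on zeros. *Itga9* was at 0 in every APP-SOCS3 sample and passed the minimum level only through APP-GFP, so its call says nothing. None of 4 ligands and kinases related to AXL (*Gas6*, *Pros1*, *Tyro3*, *Mertk*) and none of 7 partners of lipoprotein lipase was called in either comparison by limma (0 at an unadjusted *p* under 0.05). The limma adjusted *p* of these partner genes was above 0.05 throughout both comparisons.

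Of 28 further genes of this microglial state, 8 were lower in APP-SOCS3 than in APP-GFP astrocytes and none higher, beside 3.37% called lower of all genes tested. They were *Lyz2* (−2.69 ± 0.55 (SE), log2), *Cd68* (−2.09 ± 0.57), *Cd83* (−2.03 ± 0.57), *Cybb* (−4.02 ± 1.34), *Cd52* (−2.50 ± 0.89), *Ccl6* (−2.25 ± 0.84), *H2-D1* (−1.07 ± 0.40) and *B2m* (−0.68 ± 0.22). *Cybb* was at 0 in every APP-SOCS3 sample and passed the minimum level only through APP-GFP, so its call says nothing. The median of the 28 was −0.33. Relative to WT-GFP astrocytes, *Cd83* (−1.54 ± 0.37) and *H2-D1* (−0.60 ± 0.28) were lower, beside 2.02% called lower of all genes tested. None was higher, and the median was 0.02. Of these 28 genes and the 10 above, *Cst7* alone passed the thresholds for higher levels in APP-SOCS3 than in WT-GFP astrocytes without the covariate. This is a description, since the WT-GFP samples served to choose *Cst7* and it passed the minimum level only through APP-SOCS3.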

How the data were processed

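RNAseq data of 19 samples were used, grouped and numbered by the labels. The authors amplified cDNA with a low-input kit, mapped reads to mm10 with STAR 2.4.0, counted them over FAST DB genes and normalized by DESeq2 size factors. Each deposited value is thus a signal, a read count over the size factor of its sample. Since 100% of values were whole multiples of the value of 1 read (within 0.01), whole reads were recovered. The 19331876 to 32621917 reads per sample limit the precision of low values. The number of genes with a read also differed between samples. Strand use in counting is not given in the sources used here.

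The members and all gene lists were chosen with earlier results of these data known. From the deposited values, log2(level + 1) was fitted with limma 3.58.1 (R 4.3.3, mean-variance trend) on the 2 groups compared, over every gene whose mean reached 10 in 1 group or both. A call required a limma *p* of 0.05 or less, not adjusted, and a 1.5-fold difference, as in the study, and Benjamini-Hochberg adjusted *p* over all genes tested stands beside this. The study's filter on intergenic background was not used here. Exact permutation tests (scipy 1.17.1, 2-sided) compared mean log2 levels of single genes. All 187 listed genes were found by symbol. All 10 genes above were named, with their partners, called genes of the wider microglial list, the 4 most abundant genes of cell type lists (1 gene is not reported here), and the 5 genes most like *Cst7* and *Axl*. Alternatives were pseudocounts, minimum levels, scalings, 1 fit of all samples, edgeR 4.0.16 and DESeq2 1.42.0 on whole reads, adjusted *p*, a 2-fold threshold, a replicate block, a homeostatic microglial covariate and leaving out samples. The fits were tested on simulated data.

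Same-numbered samples deviated together little or not at all (r of their deviations from group means −0.078 to 0.15), so replicate numbers were not used for pairing. APP-SOCS3 replicates 2, 3 and 4 did correlate best with the same number of APP-GFP (r 0.0876, 0.0572 and 0.066), and replicate 1 did not. A shared run or day is thus not excluded.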

Additional observations from a re-analysis of the deposited data

Results flagged for a closer look

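In 7 of 29 combinations of a gene and an astrocyte group, 1 sample stood far from the others by Dixon's test on levels without logs. Chance flags about 1 in 20 only where values are normally distributed. These levels are skewed and hold many zeros, so no excess is read from the count. *Cst7* was at 11.2 in WT-GFP replicate 5 and at 0 in the other 6 samples. *Itgax* was at 228 in APP-GFP replicate 3 and at 7.00 in APP-SOCS3 replicate 3, each the highest of its group. *Lpl* was at 221 in WT-GFP replicate 6, *Spp1* at 355 in APP-SOCS3 replicate 2, and both were the highest of their groups. *Trem2* was at 30.8 in APP-SOCS3 replicate 5, the sample with the lowest summed homeostatic microglial level (5.65% of that in GFP− cells). *Gpnmb* was at 1.18 in WT-GFP replicate 3, from 1 read, and without this sample *Gpnmb* was called lower in GFP+ than in GFP− cells of WT mice (log2 fold change −0.85, limma adjusted *p* 0.081).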

How the results depend on the processing

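Between APP-SOCS3 and APP-GFP astrocytes, 6 genes were called and 5 were called by edgeR and by DESeq2, without *Spp1*. The count was 0 with adjusted *p*, 0 with the homeostatic microglial covariate and 0 without APP-GFP replicates 2 and 3, and 4 to 7 when any 1 sample was left out (4 without APP-GFP replicate 3). Between APP-SOCS3 and WT-GFP astrocytes, it was 2, and 1 (*Cst7*) by edgeR, DESeq2 or adjusted *p*, 2 with the covariate (*Cst7* and *Tyrobp*, both higher, without *Spp1*), and 2 without any 1 sample. Between GFP+ and GFP− cells it was 7, 2 with the covariate (*Itgax* and *Spp1*) and 7 to 8 without any 1 sample. Between APP-GFP and WT-GFP astrocytes, where counts are a description, it was 5, 4 to 6 without any 1 sample, and 1 with adjusted *p*, without APP-GFP replicates 2 and 3, or without these and WT-GFP replicate 2. These counts include genes that passed the minimum level through 1 group only, whose calls are a description. They were *Clec7a* for APP-SOCS3 against APP-GFP, *Cst7* for APP-SOCS3 against WT-GFP, and *Cst7*, *Clec7a* and *Itgax* between the fractions. The samples left out together were chosen after seeing the data.

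Signs turned with the covariate for *Tyrobp* (0.25), *Itgax* (1.10) and *Spp1* (0.15) between APP-SOCS3 and APP-GFP, for *Trem2* (0.75) and *Tyrobp* (1.24) between APP-SOCS3 and WT-GFP, and for *Trem2* (1.11) and *Axl* (−0.23) between GFP+ and GFP− cells. Signs of genes that were not called also turned, for *Axl* against APP-GFP without APP-GFP replicate 2 (0.0486, lowest −0.36 without any 1 sample), *Tyrobp* against WT-GFP without APP-SOCS3 replicate 5 (0.19, lowest −0.52), *Lpl* by edgeR (−0.0709) and DESeq2 (−0.0803), *Csf1* without WT-GFP replicate 5 (0.0267) or 7 (0.0196) or APP-SOCS3 replicate 1 (0.06, lowest −0.54), and, between GFP+ and GFP− cells, *Csf1* with upper quartiles (0.32) and edgeR (0.17). Between APP-GFP and WT-GFP astrocytes, the sign of *Spp1* turned with the covariate (−0.10), with the replicate block (−0.11), without APP-GFP replicate 3 (−0.39), without APP-GFP replicates 2 and 3 (−0.90) and without these and WT-GFP replicate 2 (−0.99), where that of *Csf1* turned too (−0.24). The cause was not tested. The covariate was the mean log2 level of the homeostatic genes. Their summed level, a related measure, hardly overlapped between APP-SOCS3 and APP-GFP astrocytes, and GFP+ and GFP− cells did not overlap in it. Of the 17 genes, 16 and 17 were called lower in these comparisons. Fits with the covariate therefore cannot separate group from homeostatic level in these 2 comparisons.

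With the replicate number as a block, 5 genes were called between APP-SOCS3 and APP-GFP (*Csf1* in place of *Clec7a* and *Spp1*), 2 against WT-GFP, 7 between fractions and 5 between APP-GFP and WT-GFP. Not every sample correlated best with its own number, and a block is not part of this design. Scaling to equal upper quartiles gave 707 genes higher and 683 lower over all genes in APP-SOCS3 against APP-GFP (532 and 769 otherwise), and edgeR gave 441 and 762 against WT-GFP (733 and 464 otherwise). Levels under about 3 reads per sample cannot be told from 0.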
